A study of Mus musculus with 115 samples.

Results

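Calr, Ubxn8, Il15, Pdgfrl and Zswim4 are 5 genes of mouse chromosome 8, the chromosome that carries Slc25a4, the gene of the adenine nucleotide translocator Ant1. They were chosen by their counts: each was far lower in every group of Ant1-null hearts than in wild type hearts, and that difference is therefore described here and not tested. They make up 5 of the 23930 genes on the panel, 1096 of which were placed on chromosome 8. All mice had the C57BL/6JEiJ background: wild type mice, Ant1 -/- mice (here knockout) and Ant1 -/- mice with the mitochondrial ND6 P25L variant (here knockout ND6). Each received 2.5e+11 vector genomes by injection into the pericardium, of AAV2/9Des-Gfp (the control vector) or of AAV2/9Des-Gfp-mAnt1, which adds an Ant1 copy (the Ant1 vector). Wild type hearts numbered 4 with the control vector and 3 with the Ant1 vector, knockout hearts 3 and 4, and knockout ND6 hearts 3 and 3. For knockout ND6 hearts 61 and 91 the labelled treatment (control vector) and the title code (that of the Ant1 vector) did not match, and both were kept apart. Hearts were collected at 1, 3, 6, 9 and 12 months after infection, but no heart could be given its month.

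Calreticulin, the product of Calr, is a calcium-binding chaperone of the endoplasmic reticulum that holds new glycoproteins until they are folded, and the developing mouse heart needs it. Ubxn8 encodes a protein of the same membrane system that carries a UBX domain, the part with which such proteins bind the segregase p97. Il15 encodes a cytokine that keeps natural killer cells and memory T cells alive and is made in muscle, Pdgfrl encodes a secreted protein that resembles the outer part of a platelet-derived growth factor receptor, and Zswim4 encodes a protein with a SWIM-type zinc finger.

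RNA was read through 1 amplicon per gene, and values are counts summed over the libraries of each heart and scaled to the total of that heart, in the usual CPM unit. Heart totals ran from 16827518 to 54779297 reads, so 1 read was worth far less than 1 CPM. Because amplification differs between amplicons, CPM is compared between hearts and not between genes. A lower count concerns the amplicon, and whether the rest of the transcript was lower too was not tested. Nothing in the labels says whether hearts with the same number in different groups are related, and p-values measure the spread between hearts. The 8 cardiomyocyte markers were present in all groups, with summed levels of 62201 to 72373 CPM. Slc25a4 checked the genotypes: it stood at 8461 to 11376 CPM in the 7 wild type hearts and at 0.219 to 2.03 CPM in the 6 null hearts with the control vector. The Ant1 vector hearts of the null groups stood at 55.5 to 241 CPM, except that the heart labelled knockout ND6, Ant1 vector, number 8 was at 0.731 CPM. Hearts 61 and 91 were at 169 and 151 CPM, in the range of Ant1 vector hearts and against their treatment label. Wild type control vector heart 23 had 159 CPM of the liver transcript Alb, against 0.0320 to 12.6 CPM in the other hearts.

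Calr was the steadiest of the 5 among wild type hearts. It stood at 555, 492, 496 and 519 CPM in the wild type control vector hearts and at 508, 518 and 576 CPM with the Ant1 vector. Knockout control vector hearts had 2.52, 3.61 and 2.78 CPM, and knockout Ant1 vector hearts 2.83, 4.57, 4.16 and 2.56 CPM. All 7 lay far below every wild type heart. Knockout ND6 hearts had 2.60, 2.72 and 2.96 CPM with the control vector and 3.35, 2.43 and 3.04 CPM with the Ant1 vector. Hearts 61 and 91 had 3.33 and 3.87 CPM. What remained was thus 0.471% to 0.887% of the wild type control vector mean, from 66 to 183 reads per heart. The log2 change from wild type was -7.44 in knockout and -7.54 in knockout ND6 hearts with the control vector, and -7.26 and -7.49 with the Ant1 vector. By group mean the order ran from wild type Ant1 vector (534 ± 36.8 CPM, SD, n = 3) and wild type control vector (516 ± 29.1 CPM, SD, n = 4), whose hearts overlapped, down to hearts 61 and 91, knockout Ant1 vector (3.53 ± 0.986 CPM, SD, n = 4), knockout control vector (2.97 ± 0.569 CPM, SD, n = 3), knockout ND6 Ant1 vector (2.94 ± 0.468 CPM, SD, n = 3) and knockout ND6 control vector (2.76 ± 0.185 CPM, SD, n = 3). Below the gap between wild type and null hearts, every group in this order overlapped the next.

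The RefSeq promoter table for build GRCm38.p6 held 2 of the 5 genes, Calr and Zswim4. Their 250 bases before the transcript start are shown because these genes lie close to each other, 38.6 and 38.0 Mb after Slc25a4. The amplicons of both also had far lower counts in the same hearts. Calr lies at chr8:84842088-84846931 on the minus strand and its window at chr8:84846932-84847181, while Zswim4 lies at chr8:84210942-84237042 on the minus strand and its window at chr8:84237043-84237292. Capitals mark CCAAT on either strand (ATTGG where it is on the other strand) and, in Calr, the CGTGG that with ATTGG makes up, read from the other strand, the motif of CCAAT, 9 bases of any kind and CCACG.
Calr: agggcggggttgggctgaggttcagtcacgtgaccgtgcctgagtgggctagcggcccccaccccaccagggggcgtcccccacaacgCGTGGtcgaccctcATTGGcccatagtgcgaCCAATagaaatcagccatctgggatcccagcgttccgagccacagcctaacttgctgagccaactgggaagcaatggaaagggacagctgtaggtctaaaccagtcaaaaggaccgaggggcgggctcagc
Zswim4: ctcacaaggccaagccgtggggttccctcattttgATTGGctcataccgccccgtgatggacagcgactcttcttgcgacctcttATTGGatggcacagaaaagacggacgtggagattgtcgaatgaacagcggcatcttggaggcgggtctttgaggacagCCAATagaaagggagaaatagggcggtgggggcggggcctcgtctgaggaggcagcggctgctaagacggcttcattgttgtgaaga
The Calr window holds 2 CCAAT matches and the Zswim4 window 3, counted on both strands, and 33.8% of 32851 promoter windows of the same length hold at least 1. The longer motif, known as the endoplasmic reticulum stress element of chaperone genes, is in the Calr window and in 0.113% of all windows, and it overlaps 1 of the CCAAT matches. These matches describe the letters of the reference sequence.

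Ubxn8 (chr8:33619586-33645476, minus strand) was nearly without reads in the null hearts. Wild type control vector hearts had 11.8, 11.1, 12.3 and 12.3 CPM and wild type Ant1 vector hearts 11.6, 12.3 and 10.3 CPM. The null hearts had 0 to 4 reads each and 24 reads in all 15. In reads, knockout control vector hearts had 3, 3 and 0, knockout Ant1 vector hearts 0, 2, 1 and 1, knockout ND6 control vector hearts 3, 0 and 2, and knockout ND6 Ant1 vector hearts 4, 0 and 2. Hearts 61 and 91 had 1 and 2 reads. No null heart came near the wild type range of 198 to 420 reads, and the null groups overlapped each other throughout. Over pooled reads Ubxn8 was 182-fold lower in knockout than in wild type control vector hearts (95% interval from counting error alone 83.4 to 496, from 6 reads) and 230-fold lower in knockout ND6 control vector hearts (98.6 to 711, from 5 reads). With the Ant1 vector it was 391-fold lower in knockout (152 to 1439, from 4 reads) and 209-fold lower in knockout ND6 hearts (95.5 to 570, from 6 reads). These intervals overlap.

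Il15 (chr8:82331624-82403252, minus strand) was the exception in size, since a clear signal remained. Wild type control vector hearts had 99.6, 78.1, 62.0 and 69.9 CPM and wild type Ant1 vector hearts 95.8, 83.1 and 75.5 CPM. Knockout hearts had 12.8, 11.9 and 13.0 CPM with the control vector and 11.6, 13.3, 10.9 and 11.3 CPM with the Ant1 vector. Every one of these knockout hearts lay well below the lowest wild type heart. Knockout ND6 hearts had 11.8, 13.2 and 12.4 CPM with the control vector and 10.5, 11.8 and 14.1 CPM with the Ant1 vector, and hearts 61 and 91 had 12.8 and 9.49 CPM. From 297 to 599 reads per null heart were behind these values, so the remaining level, 12.3% to 18.2% of the wild type control vector mean, is far above counting error. The log2 change from wild type was -2.62 and -2.64 in knockout and knockout ND6 hearts with the control vector and -2.85 and -2.81 with the Ant1 vector. The coefficient of variation was 21.0% among the 4 wild type control vector hearts, where heart 23 was highest, and 4.99% among the 3 knockout control vector hearts. All null groups overlapped in their levels.

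Pdgfrl (chr8:40926233-40990782, plus strand) had the fewest reads left. Wild type control vector hearts had 8.36, 10.3, 11.0 and 9.43 CPM and wild type Ant1 vector hearts 8.76, 6.86 and 6.72 CPM. The 15 null hearts had 11 reads together. Knockout control vector hearts had 1, 2 and 1 reads, knockout Ant1 vector hearts 0, 0, 0 and 1, knockout ND6 control vector hearts 0, 2 and 0, and knockout ND6 Ant1 vector hearts 3, 0 and 1. Hearts 61 and 91 had 0 reads. The fold below wild type over pooled reads was 224 in knockout control vector hearts (87.4 to 824, from 4 reads) and 474 in knockout ND6 control vector hearts (131 to 3915, from 2 reads). With the Ant1 vector it was 988 in knockout (177 to 39110, from 1 read) and 198 in knockout ND6 hearts (76.8 to 728, from 4 reads). With so few reads the 4 folds cannot be ranked.

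Zswim4 varied more than the other 4 among wild type control vector hearts, which had 13.3, 15.9, 14.0 and 24.4 CPM. Heart 70 was the highest of them. Wild type Ant1 vector hearts had 16.1, 16.6 and 14.8 CPM. Knockout hearts had 0.196, 0.195 and 0.0661 CPM with the control vector and 0.175, 0.220, 0.0730 and 0.169 CPM with the Ant1 vector. Knockout ND6 hearts had 0.121, 0.188 and 0.284 CPM with the control vector and 0.275, 0.405 and 0.402 CPM with the Ant1 vector. Hearts 61 and 91 had 0.377 and 0.511 CPM. These levels rest on 2 to 16 reads per heart and amount to 0.391% to 3.02% of the wild type control vector mean. The highest of them were heart 91, the knockout ND6 Ant1 vector hearts 5 and 8, and heart 61. The log2 change from wild type was -6.76 and -6.40 in knockout and knockout ND6 hearts with the control vector and -6.59 and -5.50 with the Ant1 vector.

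**Figure D1:**
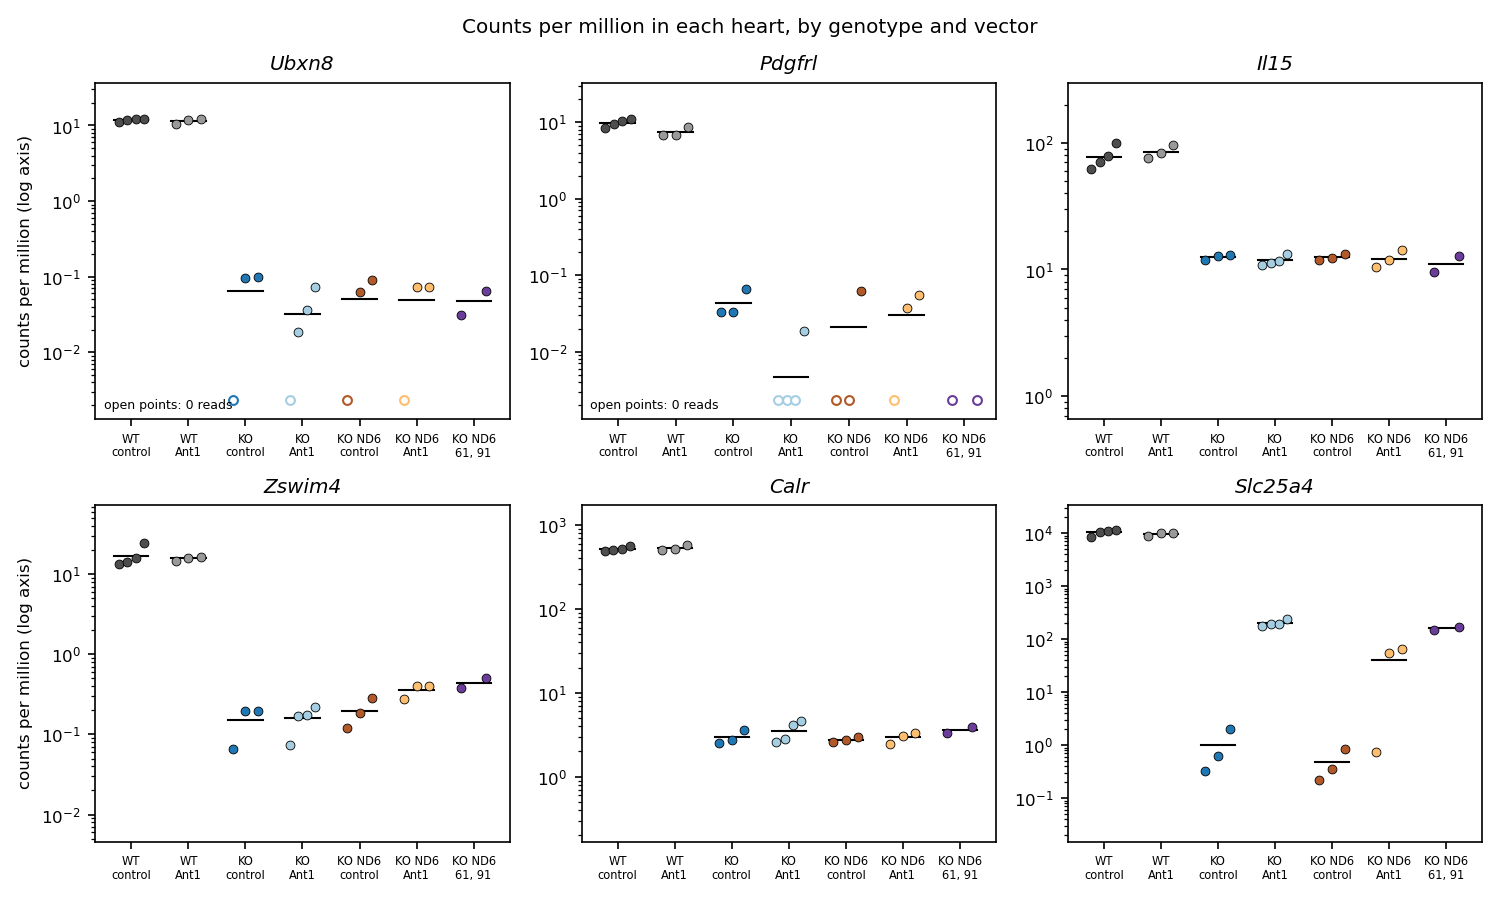
Level in CPM (log axis) of Ubxn8, Pdgfrl, Il15, Zswim4, Calr and Slc25a4 in each heart, by genotype (WT wild type, KO knockout) and vector, where filled points are hearts, open points are hearts with 0 reads drawn below the scale and lines are group means. For each of the 5 genes all 15 null hearts sit below all 7 wild type hearts, whereas Slc25a4 reads return with the Ant1 vector to 55.5 CPM or more in all null hearts labelled with it except knockout ND6 heart 8.

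The Ant1 vector gave Slc25a4 reads in the null hearts. In knockout hearts Slc25a4 went from 0.991 CPM with the control vector to 203 CPM with the Ant1 vector (log2 change 7.67, SE 0.87, edgeR quasi-likelihood adjusted p = 0.000264), and all Ant1 vector hearts lay above all control vector hearts. In the same hearts Calr went from 2.97 to 3.53 CPM and Il15 from 12.6 to 11.8 CPM. The amplicon does not tell the mouse gene from the vector's copy.

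The reads that remained in null hearts were also looked at by library, since libraries were deposited in tables of 8. Of the 15 null hearts 5 shared a table with wild type libraries and 10 did not. Among those 10 were all hearts of the knockout ND6 Ant1 vector group (5, 8 and 37). Calr had a median of 2.81 CPM (1.87 to 6.11) in the 22 null libraries that shared a table with wild type and 2.97 CPM (0.948 to 6.40) in the 56 that did not. Il15 had medians of 11.6 and 12.0 CPM in these libraries, and Zswim4 0.243 and 0.134 CPM. Ubxn8 had 0 reads in 14 of the 22 and in 40 of the 56 libraries, and Pdgfrl in 21 and in 47. Calr and Il15 were thus read at a like low level in both kinds of table, while the Zswim4 median was higher in tables shared with wild type. So was that of Slc25a4 in control vector null libraries. It was 1.55 CPM in 10 libraries of 2 hearts sharing a table with wild type and 0.389 CPM in 24 libraries of 4 hearts that did not. The cause was not tested. The wild type libraries 80a and 80b, whose label gives 0 vector genomes of AAV2/9Des-Gfp-mAnt1, were put in no group. They had 499.8 and 500.6 CPM of Calr and 92.9 to 95.0 CPM of Il15. Wild type libraries of the groups, on the same scale, had 465.8 to 599.0 CPM of Calr and 58.3 to 100.5 CPM of Il15.

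The 5 genes are not next to each other. Ubxn8 and Pdgfrl start 12.6 and 5.28 Mb before Slc25a4 (chr8:46207168-46211062, minus strand), and Il15, Zswim4 and Calr start 36.1, 38.0 and 38.6 Mb after it. With adjusted p under 0.05 over 15403 genes tested in edgeR, all 5 were called lower in each of the 4 comparisons with wild type, where 6.23% of all genes were called lower for knockout and 5.97% for knockout ND6 hearts with the control vector, and 4.53% and 8.71% with the Ant1 vector (8.19%, 6.71%, 5.37% and 10.8% were called higher). The choice of the genes used these comparisons, so nothing is read from that count. Of the 188 other genes between Ubxn8 and Calr that reached 5 CPM in control vector wild type hearts, 21, 22, 19 and 26 were called lower in the 4 comparisons (11.2%, 11.7%, 10.1% and 13.8%) and 24, 20, 17 and 30 higher. On the other chromosomes the shares called lower among 9059 such genes were 7.09%, 6.76%, 6.03% and 10.7%. Their median log2 changes lay close to 0, between -0.02 and 0.04 for the 188 genes. In all 4 comparisons together, 5 of the 188 were called lower (2.66%) and 6 higher, beside 1.14% lower elsewhere while 1% of all genes tested were called lower and 2.34% higher.

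Among genes that reached 5 CPM, few near Slc25a4 itself were called lower. Of the 20 other such genes within 5 Mb of it 1 was called lower, in knockout against wild type hearts with the Ant1 vector, and their log2 changes lay between -0.41 and 0.54 in the 4 comparisons. Gm16348, which has a lower level in wild type hearts and so is not among the 20, starts 4.99 Mb before Slc25a4 and had log2 changes of -8.43 to -4.90. These rest on 0 to 3 reads per null group. Between 5 and 15 Mb from it 6, 10, 10 and 13 of 35 genes were called lower, between 15 and 35 Mb 14, 13, 12 and 20 of 181, and between 35 and 40 Mb, where Il15, Zswim4 and Calr lie, 11, 10, 7 and 9 of 54. These counts describe the chromosome and carry no test.

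**Figure D2:**
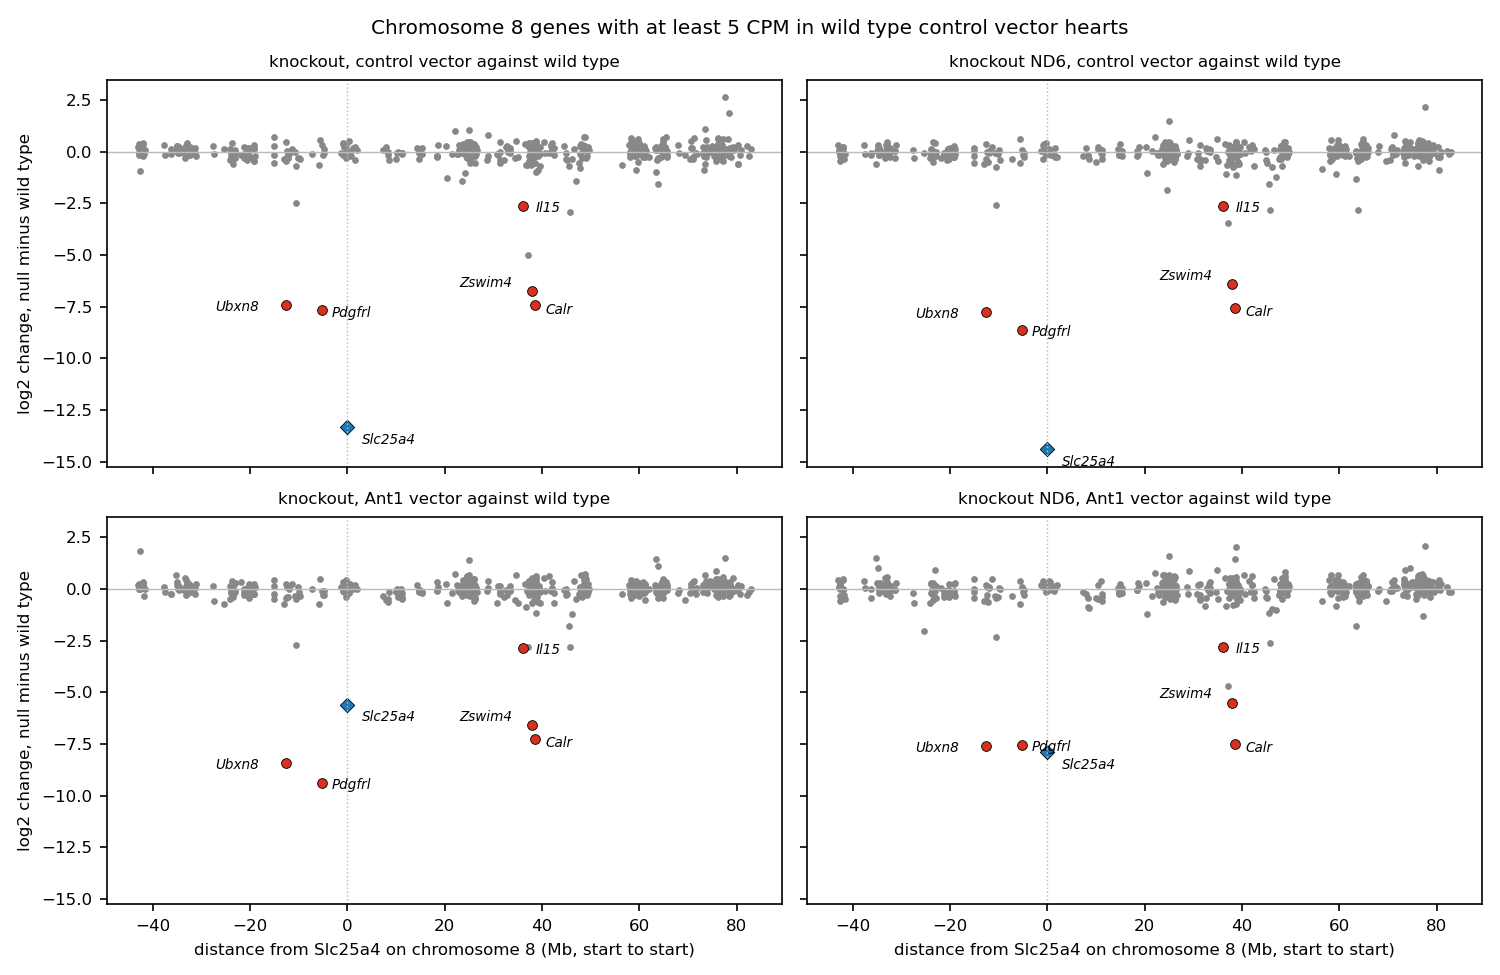
Log2 change from wild type (null minus wild type, same vector) of each chromosome 8 gene that reached 5 CPM in control vector wild type hearts, against its distance from Slc25a4 in Mb, in the 4 comparisons used to choose the genes. The 5 genes (red) lie at -2.62 or lower in every panel, Slc25a4 (blue diamond) moves from -13.35 and -14.40 with the control vector to -5.60 and -7.90 with the Ant1 vector, and most other genes (grey) lie near 0.

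The nearest well-read genes had small changes in either direction. The nearest genes on either side of each of them and of Slc25a4 with at least 5 CPM, 12 in all, had log2 changes between -0.68 and 0.60 in the 4 comparisons. Farsa, a subunit of phenylalanine tRNA synthetase near Calr, rose from 20.0 to 24.8 CPM (log2 change 0.31, edgeR adjusted p = 0.0278). Farsa did not move the way Calr did. Ppp2cb, a catalytic subunit of protein phosphatase 2A whose gene overlaps the end of Ubxn8 by 0.218 kb, fell from 114 to 82.9 CPM in knockout control vector hearts (log2 change -0.46, SE 0.09, edgeR adjusted p = 0.00158) and was lower in the other 3 comparisons too (log2 change -0.34, -0.46 and -0.54, edgeR adjusted p = 0.0179, 0.00223 and 0.000632). Gsr, glutathione reductase, on the other side of Ubxn8, rose in both control vector comparisons (log2 change 0.48 and 0.37, edgeR adjusted p = 0.00899 and 0.0439). Vps37a, 375 kb before Pdgfrl with 2 tested genes of lower level between them, rose in all 4 (log2 change 0.55, 0.60, 0.49 and 0.40), and Mtus1, 0.130 kb beyond Pdgfrl, rose in the knockout control vector hearts (log2 change 0.30, edgeR adjusted p = 0.0469). Inpp4b, a lipid phosphatase gene beside Il15, fell in 3 of the 4 comparisons (log2 change -0.44, -0.68 and -0.47) and had -0.23 in the knockout control vector hearts (edgeR adjusted p = 0.170). Past Mtus1, however, Fgl1 (chr8:41191434-41217978) and Gm16348 (chr8:41218136-41220894), with means of 0.724 and 0.727 CPM in wild type hearts given the control vector, had log2 changes of -5.68 to -3.94 and of -8.43 to -4.90. Of the 12 neighbours 1, 2, 2 and 2 were called lower and 6, 5, 4 and 6 higher in the 4 comparisons.

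Genes were also ranked by the least negative of the 4 log2 changes. The 5 genes were chosen from these same comparisons, so their ranks are a description and carry no test. Pdgfrl, Ubxn8 and Calr took ranks 1, 2 and 3 among all genes tested (-7.53, -7.42 and -7.26, SE 0.40, 0.40 and 0.17). The order of these 3 is not resolved. Next was Ppp1r3b, which encodes a glycogen-targeting subunit of protein phosphatase 1 and lies 10.8 Mb before Slc25a4, with -6.47. It had 1.88 to 6.18 CPM in wild type and 0 to 0.110 CPM in null hearts, and it is not among the 5. Slc25a4 had -5.60 and Zswim4 -5.50. Il15, with -2.62, came only at rank 14, behind Gm16348 (-4.90), Fgl1 (-3.94), Ucp1 (-2.81), Gm36670 (-2.63) and others, and these 4 also lie on chromosome 8. The set is therefore not all of the chromosome 8 genes with such a change: of the 24 genes with a log2 change under -2 in all 4 comparisons, 13 lie on chromosome 8 and 5 are those described here. Of the 8 under -4, 7 lie on chromosome 8, and the other, LOC108167541 (-5.14), was not placed. Ucp1, the uncoupling protein of brown fat, had 1.87 to 35.1 CPM in wild type and 0 to 3.41 CPM in null hearts and did not pass in knockout against wild type hearts with the Ant1 vector (edgeR adjusted p = 0.067). Gdf15, a stress cytokine gene on the same chromosome, moved the other way: its log2 change was 3.28 in knockout ND6 against wild type control vector hearts (edgeR adjusted p = 5.34e-05), while in knockout against wild type control vector hearts it was 0.42 (adjusted p = 0.601). Of the widest rises in all 4 comparisons, Sycp1, a gene of meiotic chromosome pairing on chromosome 3, had log2 changes of 7.78, 8.07, 7.35 and 7.32.

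The genes whose pattern over the 22 hearts was most like the mean of the 5 were Mfhas1 (Pearson r = 0.993), Ppp1r3b (0.984), LOC108167541 (0.982), Egln3 (0.981), Cenpf (0.966) and Gm16348 (0.965). Mfhas1 and Ppp1r3b lie on chromosome 8, Egln3, an oxygen-sensing prolyl hydroxylase gene, on chromosome 12 and Cenpf, a kinetochore gene, on chromosome 1. Since the hearts fall into a wild type and a null cluster, such an r mainly describes how fully a gene separates them, and no p is given. Mfhas1 had 71.0 to 89.1 CPM in wild type hearts and 10.1 to 17.0 CPM in null hearts, a gap much like that of Il15. Slc25a4 had an r of 0.804, as it also varied with the vector. The least alike were Sycp1 (-0.993), Tmem116 (-0.985), Gnb3 (-0.972) and Zdhhc2 (-0.967), all higher in null hearts, and Zdhhc2, a palmitoyltransferase gene, lies on chromosome 8 as well.

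The other 4 comparisons ask whether the ND6 variant or the Ant1 vector moved what was left of the 5 genes. The choice did not compare these groups with each other, but it required low values in every null group. A gene brought back by the Ant1 vector or by the ND6 variant could not be among the 5. The lack of calls between null groups was thus partly fixed by the choice. None of the 5 passed adjusted p 0.05 in edgeR in any of these 4 comparisons, none had an unadjusted p under 0.05, and none passed in DESeq2. Ubxn8 (0 to 4 reads per null heart) and Pdgfrl (0 to 3) passed the count filter only through wild type hearts. A change between null groups could hardly be called for them, so nothing is read from their lack of calls there. Over all genes 1.06% were called in knockout ND6 against knockout hearts with the control vector, 5.47% with the Ant1 vector against the control vector in knockout hearts, 2.53% in knockout ND6 hearts and 0.117% in wild type hearts. Control vector and Ant1 vector groups shared no library table, so a vector effect and a table effect cannot be told apart.

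For knockout ND6 against knockout hearts with the control vector, Calr had a log2 change of -0.10 (95% interval -0.49 to 0.28, edgeR adjusted p = 0.861) and Il15 of -0.01 (-0.33 to 0.30, adjusted p = 0.982). The hearts of the groups overlapped for both. Zswim4 had 0.36 (-0.67 to 1.38, adjusted p = 0.808), a wide interval from 19 against 14 reads. Ubxn8 had 5 against 6 reads and Pdgfrl 2 against 4, pooled ratios of 0.789 (0.190 to 3.10) and 0.473 (0.0428 to 3.30) from counting error alone.

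For the Ant1 vector in knockout hearts the log2 change of Calr was 0.23 (-0.13 to 0.59, edgeR adjusted p = 0.473), that of Il15 -0.10 (-0.39 to 0.20, adjusted p = 0.751) and that of Zswim4 0.07 (-0.92 to 1.07, adjusted p = 0.953). Ubxn8 had 4 against 6 reads and Pdgfrl 1 against 4, pooled ratios of 0.448 (0.0930 to 1.89) and 0.168 (0.00341 to 1.70). The Pdgfrl hearts did not overlap, and the edgeR log2 change was -2.09 (-4.14 to -0.04, adjusted p = 0.272), but the difference rests on 5 reads. In knockout ND6 hearts Calr had 0.11 (-0.28 to 0.49, adjusted p = 0.791), Il15 -0.04 (-0.36 to 0.28, adjusted p = 0.912) and Zswim4 0.81 (-0.06 to 1.67, adjusted p = 0.287). Zswim4 came from 37 against 19 reads, its hearts overlapped (0.275 to 0.405 against 0.121 to 0.284 CPM), and without heart 8 its log2 change was 0.71 (adjusted p = 0.434). Ubxn8 had 6 against 5 reads there and Pdgfrl 4 against 2.

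In wild type hearts, where all 5 genes are well read, the Ant1 vector comparison gave the narrowest intervals. Calr had a log2 change of 0.05 (-0.23 to 0.33, edgeR adjusted p = 0.918), Il15 of 0.13 (-0.15 to 0.41, adjusted p = 0.757), Ubxn8 of -0.06 (-0.52 to 0.41, adjusted p = 0.947) and Zswim4 of -0.09 (-0.50 to 0.31, adjusted p = 0.892). Pdgfrl had the widest difference, -0.40 (-0.85 to 0.05, adjusted p = 0.491), with 6.72 to 8.76 CPM against 8.36 to 11.0 CPM. Whether the vector change differed between null and wild type hearts was tested by an interaction term for each gene. None of these 10 terms passed (lowest edgeR adjusted p = 0.500, for Zswim4 in knockout ND6 hearts). None had an unadjusted p under 0.05, and the terms were not run in DESeq2. The choice of genes low in every null group limits these terms too. For Ubxn8 and Pdgfrl their null side rests on 1 to 6 reads per group, too few to decide.

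**Figure D3:**
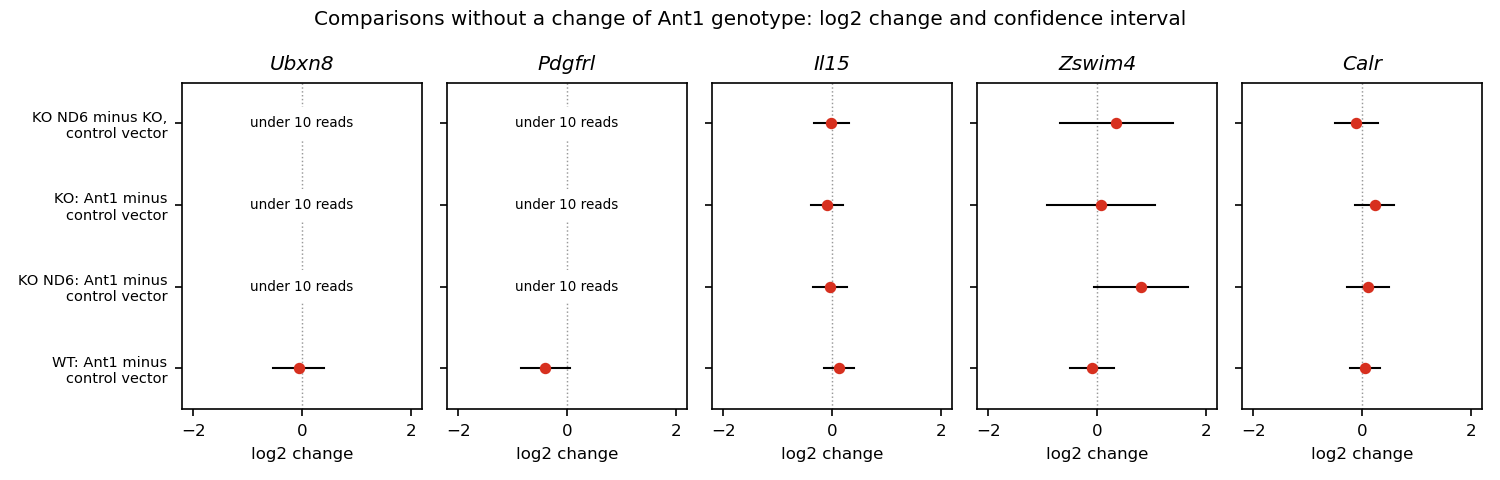
Log2 change (point) and 95% interval (line) from the edgeR fit in the 4 comparisons in which the Ant1 genotype is the same on both sides. Every interval drawn spans 0, and no interval is drawn where Ubxn8 and Pdgfrl had under 10 reads in each null group. Among those not drawn, that of Pdgfrl for the Ant1 vector in knockout hearts ran from -4.14 to -0.04, from 1 against 4 reads.

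The number of calls among genes that work with calreticulin varied between comparisons, while reads of the Calr amplicon were low in every null group. A difference between such counts is not a test of a difference between null groups. Compared directly, knockout ND6 against knockout control vector hearts called 0 of 23 in edgeR. Of 23 tested genes of the calreticulin cycle and its fellow chaperones, 9 fell and 0 rose in knockout against wild type control vector hearts (39.1% of the list, beside 6.23% of all genes called lower; median log2 change -0.28, against -0.03 over all genes). Sdf2l1, a partner of the chaperone BiP, fell from 26.2 ± 2.35 to 13.2 ± 0.635 CPM (SD, n = 4 and 3; edgeR adjusted p = 0.00162), the disulfide isomerase gene Pdia6 from 52.9 ± 1.25 to 32.5 ± 2.56 CPM (adjusted p = 0.00130) and Hsp90b1, the endoplasmic reticulum form of Hsp90, from 729.7 ± 111 to 520.5 ± 34.6 CPM (adjusted p = 0.00699). Without wild type heart 23, 7 fell. In knockout ND6 control vector hearts 0 of 23 passed in edgeR, where DESeq2 called 2 and 5 had an unadjusted p under 0.05 (median log2 change -0.14). With the Ant1 vector 6 fell and 1, Erp29, rose in knockout hearts, while 11 fell and 0 rose in knockout ND6 hearts (47.8%, beside 8.71% of all genes), and 9 fell there without heart 8. In the latter Sdf2l1 went from 32.5 ± 8.79 to 12.5 ± 2.28 CPM (SD, n = 3 each; adjusted p = 0.000133) and Pdia3, the isomerase that calreticulin brings to glycoproteins, from 262 ± 30.9 to 146 ± 9.35 CPM (adjusted p = 0.000954). These knockout ND6 Ant1 vector hearts shared no library table with wild type. In knockout hearts 5 of the 23 rose and 1 fell with the Ant1 vector against the control vector (26.1% called, beside 5.47% of all genes), among them Hyou1, a large chaperone of the Hsp110 kind, from 33.0 ± 1.60 to 50.8 ± 7.59 CPM (SD, n = 3 and 4; adjusted p = 0.0145), and Pdia6, from 32.5 ± 2.56 to 46.6 ± 9.26 CPM (adjusted p = 0.0316). The same comparison in knockout ND6 and in wild type hearts called 0 of 23 in edgeR (3 and 4 at an unadjusted p under 0.05, 2 and 1 in DESeq2), as did knockout ND6 against knockout hearts (8 and 1).

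Of 13 tested genes of interleukin-15 signalling few passed. The receptor gene Il15ra, which presents the cytokine to its target cells, had 47.7 ± 5.80 CPM in the 4 wild type hearts given the control vector and 39.9 ± 2.75 CPM (SD) in the 3 knockout ones (edgeR adjusted p = 0.118), and fell with the Ant1 vector from 46.6 ± 1.45 CPM in wild type to 32.2 ± 1.42 CPM in knockout ND6 hearts (SD, n = 3 each; adjusted p = 0.00277). Jak1, the kinase that signals beneath the receptor, rose in knockout ND6 against wild type control vector hearts (log2 change 0.55, adjusted p = 0.00550) and with the Ant1 vector in knockout and knockout ND6 hearts (0.68 and 0.51, adjusted p = 0.00159 and 0.0106). Bcl2, a survival gene, rose from 12.5 ± 1.25 to 23.4 ± 1.71 CPM in knockout ND6 control vector hearts (adjusted p = 0.00780). In knockout against wild type control vector hearts 0 of 13 passed in edgeR, with 3 at an unadjusted p under 0.05 and 1 in DESeq2. Of the 14 markers of natural killer and T cells, the cells that interleukin-15 keeps alive, 9 passed the count filter and 0 were called in any of the 8 comparisons in edgeR or DESeq2 (4, 0, 0, 1, 2, 3, 0 and 0 at an unadjusted p under 0.05). Their summed level was low everywhere, 3.62 to 6.13 CPM in wild type and 2.02 to 7.25 CPM in null hearts.

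The lists around Ubxn8, Zswim4 and Pdgfrl held few calls. Of 21 tested genes of UBX proteins and p97, 2 rose and 0 fell in knockout control vector hearts, Plaa and Nploc4, both partners of p97 (log2 change 0.40 and 0.33, edgeR adjusted p = 0.0156 and 0.0477), and 1 rose in knockout ND6 control vector hearts, Ubxn4 (0.36, adjusted p = 0.0390). These are 9.52% and 4.76% of the list, near the 8.19% and 6.71% of all genes called higher, and without wild type heart 23 they were 1 and 0. With the Ant1 vector 0 rose and 1 fell in knockout hearts, Ufd1l, and 2 rose and 2 fell in knockout ND6 hearts, among them Ubxn6, which rose from 71.0 ± 3.49 to 99.5 ± 6.31 CPM (SD, n = 3 each; adjusted p = 0.000890). Without heart 8, 1 rose and 1 fell in the latter. Of 6 tested genes of the Zswim family 1, Zswim5, rose in knockout control vector hearts (log2 change 0.66, adjusted p = 0.0131), and 0 passed in the other 3 comparisons with wild type (1, 1 and 0 at an unadjusted p under 0.05, 0 in DESeq2). Of 6 genes of the platelet-derived growth factor system 1 fell in knockout and 2 in knockout ND6 control vector hearts (16.7% and 33.3%, beside 6.23% and 5.97% of all genes), and 1 in each without heart 23. The receptor gene Pdgfra fell from 20.7 ± 1.83 CPM to 14.4 ± 2.59 in knockout and 15.1 ± 0.693 CPM in knockout ND6 control vector hearts (SD, n = 4, 3 and 3; edgeR adjusted p = 0.0155 and 0.0386). The ligand gene Pdgfc fell from 4.74 ± 0.472 to 2.74 ± 0.205 CPM in knockout ND6 control vector hearts (SD, n = 4 and 3; adjusted p = 0.0233). In knockout hearts with the Ant1 vector 0 of 6 passed in edgeR or DESeq2, with 2 at an unadjusted p under 0.05. The ligand gene Pdgfb rose in knockout ND6 hearts with the Ant1 vector, to 158 ± 41.9 CPM from 82.2 ± 8.93 CPM in wild type (SD, n = 3 each; adjusted p = 0.000890).

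Fibroblast markers, among which Pdgfra also counts, moved beside these changes. All 8 were on the panel and none was at 0 in any group. Of the 8, 5 fell in knockout and 4 in knockout ND6 control vector hearts (62.5% and 50%, beside 6.23% and 5.97% of all genes). With the Ant1 vector 1 fell in knockout hearts, and 2 fell and 1, Col1a1, rose in knockout ND6 hearts. These are 12.5% and 37.5% called, beside 4.53% and 8.71% of all genes called lower and 5.37% and 10.8% higher. Without heart 8, 1 fell and 0 rose in the knockout ND6 hearts with the Ant1 vector. Their summed level was 2938 to 3099 CPM in wild type control vector hearts, 2635 to 2777 CPM in wild type Ant1 vector hearts and 1958 to 2638 CPM over the null hearts. The other marker lists were called less evenly: over the 4 comparisons with wild type, 1, 0, 0 and 3 of 6 endothelial markers rose, 0, 2, 1 and 1 of 5 macrophage markers fell, 0, 0, 0 and 1 of 5 mural markers rose, 1, 1, 0 and 1 of 4 adipocyte markers fell and 2, 2, 0 and 0 of 3 liver markers fell, with the liver markers highest in heart 23 (253 CPM summed). Ucp1, which lies on chromosome 8, is 1 of the 4 adipocyte markers. It had the lowest log2 change of them in each comparison (-4.99, -3.44, -2.81 and -4.68). Without heart 23, 1 liver marker fell in each control vector comparison, the liver median went from -2.46 to -0.31 and from -2.63 to -0.47 on the log2 scale, and 0 endothelial markers rose in knockout hearts. Without heart 8, 2 endothelial markers rose and 0 macrophage markers fell in knockout ND6 hearts with the Ant1 vector. Of the 8 cardiomyocyte markers 0, 0, 1 and 2 fell and 1 rose, in knockout ND6 hearts with the Ant1 vector. Over all genes 6.23%, 5.97%, 4.53% and 8.71% were called lower and 8.19%, 6.71%, 5.37% and 10.8% higher in the 4 comparisons. In the lists of this paragraph, which are short, 1 call is 12.5% of the tested genes or more. Lists with 0 calls had 0 to 3 genes at an unadjusted p under 0.05 and 0 to 2 calls in DESeq2. Their part in the levels of Pdgfrl, Il15, Calr and its partners was not tested, and in these whole hearts fewer cells of a type and less RNA per cell cannot be told apart.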

How the data were processed

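RNA of mouse hearts was read with a targeted transcriptome panel, 1 amplicon per gene, on an Ion Torrent sequencer, per the labels. The authors deposited raw read counts per amplicon in 14 tables of 8 libraries, with mm10 named as genome build in the submitters' processing notes. Aligner, counter and the place of each amplicon in its transcript were not given in the sources used here, so a lower count concerns that amplicon. Of 115 samples, 3 single-nucleus samples were not analysed here. Library totals ran from 2893780 to 8531273 reads. Libraries were summed per heart, taking the number in the title with genotype and vector as the heart. Symbols turned into dates were restored for 27 rows, and 1276 amplicons could not be placed in the RefSeq GRCm38.p6 table.

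Counts were tested with edgeR 4.0.16 (quasi-likelihood test, TMM scaling, filterByExpr, all 7 groups in 1 fit, Benjamini-Hochberg adjustment over 15403 genes, threshold 0.05) in R 4.3.3, and all 5 genes passed the count filter. Ubxn8 and Pdgfrl passed that filter only through wild type hearts. The code was tested on simulated data. Intervals of pooled reads are exact at 95% and cover counting error only. Alternatives were DESeq2 1.42.0, other size factors, no filter, the compared groups alone, the a and b libraries alone, the table as a covariate (limma 3.58.1), other places for hearts 61 and 91, and leaving out each heart. The members and lists were chosen with earlier results of these data known. Named genes were the 5 genes, Slc25a4, their neighbours with at least 5 CPM, the 8 genes with the widest fall and the 8 with the widest rise in all 4 comparisons with wild type, the 6 most and 4 least like the 5 genes, up to 4 genes of each list by smallest adjusted p, Gdf15 and Ucp1. Of these, 1 gene is not reported here. Gm36670, which has no place in that rule, was named after its values were seen. Marker lists covered cardiomyocytes, fibroblasts, endothelial, mural, natural killer and T cells, macrophages, adipocytes and liver.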

Additional observations from a re-analysis of the deposited data

Results flagged for a closer look

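Pdgfrl in the knockout hearts with the Ant1 vector had 1 heart apart from the others: heart 27 stood at 0.0188 CPM, from 1 read, and the other 3 hearts had 0 reads. The gap was the whole range (ratio 1, against a critical value of 0.829). With 3 hearts at 0 reads and 1 heart at 1 read the ratio is 1 by construction, so it shows no more than the single read, and the usual rate of about 1 in 20 groups does not hold for such counts.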

How the results depend on the processing

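In the 4 comparisons with wild type, whose direction the choice of the 5 genes fixes and from which no stability is read, the log2 changes ran over the alternatives from -9.01 to -6.22 for Ubxn8, -11.29 to -6.46 for Pdgfrl, -2.93 to -2.48 for Il15, -6.97 to -5.23 for Zswim4 and -7.83 to -7.11 for Calr. In the other 4 comparisons none passed in any alternative (lowest adjusted p = 0.144, for Pdgfrl with the Ant1 vector in knockout hearts). Between null groups the choice of the genes limits such calls. Several uncalled changes turned sign. With libraries a and b alone (c and d for heart 80), Ubxn8 and Il15 had 0.22 and 0.20 in knockout ND6 against knockout hearts, and Ubxn8 had -0.18 and 0.015 with the Ant1 vector in knockout ND6 and wild type hearts. With the table as a covariate, Il15 and Zswim4 had 0.035 and -0.31 in knockout ND6 against knockout hearts. With hearts 61 and 91 as control vector, Calr had 0.052 there, and with the Ant1 vector in knockout ND6 hearts Il15 and Calr had 0.0125 and -0.064. Leaving out 1 heart, the changes that turned sign ran, in knockout ND6 against knockout hearts, from -0.97 to 0.21 (Ubxn8), -0.065 to 0.025 (Il15) and -0.21 to 0.053 (Calr). With the Ant1 vector they ran from -0.27 to 0.29 for Zswim4 in knockout hearts, from -0.47 to 0.72 (Ubxn8), -0.14 to 3.36 (Pdgfrl), -0.16 to 0.056 (Il15) and -0.014 to 0.22 (Calr) in knockout ND6 hearts, and from -0.11 to 0.011 (Ubxn8), -0.19 to 0.14 (Zswim4) and -0.007 to 0.088 (Calr) in wild type hearts. Few reads limit Ubxn8, Pdgfrl and Zswim4 in null hearts.

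Counts of all genes called moved more, and the cause was not tested. Knockout against wild type control vector hearts gave 2220 genes, 1473 with libraries a and b alone and 1366 to 1976 with 1 heart left out. Knockout ND6 against wild type gave 1954, 2994 with hearts 61 and 91 as control vector and 999 to 1706 with 1 heart left out. With the Ant1 vector, knockout against wild type gave 1524, 906 with libraries a and b, 866 with the compared groups alone and 782 to 1642 with 1 heart left out, and knockout ND6 gave 3005, 1888, 1931 and 1879 to 2583. Knockout ND6 against knockout control vector hearts gave 163, 488 in DESeq2, 627 with hearts 61 and 91 as control vector, 101 with libraries a and b, 1949 with the table as covariate, 842 with the compared groups and 46 to 79 with 1 heart left out. The Ant1 vector in knockout hearts gave 842, 1434 in DESeq2, 513 without the filter, 237 with the compared groups and 222 to 1050 with 1 heart left out. In knockout ND6 hearts it gave 390, 857 in DESeq2, 20 and 258 with hearts 61 and 91 as Ant1 or control vector, 203 with libraries a and b, 182 with the compared groups and 109 to 363 with 1 heart left out. In wild type hearts it gave 18, 159 in DESeq2, 7 with libraries a and b, 29 without the filter, 0 with the compared groups in edgeR and 0 to 91 with 1 heart left out, where 1795 genes had an unadjusted p under 0.05. The table covariate could not be fitted for the vector comparisons. No paired analysis was possible because the numbers in the titles name hearts and the groups share few of them.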
